A study of Homo sapiens with 6 samples.

Results

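Long noncoding RNA genes were followed on arrays of A549 cells in which 1 of them, LINC00525, had been silenced. Members were chosen by name, with earlier results of these data known. The rule took every gene whose symbol reads LINC and a number (long intergenic noncoding RNAs), SNHG and a number (small nucleolar RNA host genes), MIR, a number and HG (microRNA host genes), or ends in -AS or -AS and a digit (antisense genes). Of the 18132 genes with a probe set of their own, 274 met this rule: 150 LINC genes, 10 SNHG genes, 4 microRNA host genes and 110 antisense genes. A549 is an established human lung adenocarcinoma line. The control group (sh_ctrl, 3 arrays) carries a scrambled negative control, and the knockdown group (sh_LINC00525, 3 arrays) was silenced for LINC00525. The labels state no other treatment or genetic change in either group, and the study asked how the transcripts change on silencing. The titles write "sh" where the treatment text names small interfering RNA, and no sequence of the silencing agent was used here, so whether 1 agent or several were applied is unknown. The genotype field carries LINC00526 for knockdown replicate 2 and LINC00527 for knockdown replicate 3, whereas both titles carry LINC00525.

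A long noncoding RNA is a transcript that is not translated into a known protein, and many are spliced, polyadenylated and scarce. The SNHG genes carry small nucleolar RNAs in their introns. These are cut from the introns and guide chemical modification of ribosomal RNA, while the spliced exons are often short-lived, being translated over short stretches and then removed by nonsense-mediated decay. Several SNHG genes start with a run of pyrimidines, as ribosomal protein genes do. Antisense genes are transcribed from the strand opposite to the gene they are named after, and microRNA host genes hold a microRNA hairpin within their transcript. Many LINC genes have no known role.

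The starts of the SNHG genes are shown first, because 4 of the 10 rose and because the first bases are what the known pyrimidine-start genes share. The bases come from RefSeq (GRCh38.p14), which held 9 of the 10, and each line gives the first 20 bases of the annotated transcript, with the unbroken run of pyrimidines (C or T) at the very start in capitals. EPB41L4A-AS1, an antisense gene that also hosts a small nucleolar RNA, is added.
SNHG12, chr1:28581854-28581873, minus strand: CCTTTCTCCCCgccgcattc
SNHG32, chr6:31834916-31834935, plus strand: CTTTTTgcgaagtgggctcg
SNHG8, chr4:118278762-118278781, plus strand: Cacattcgggaagcgtcggg
SNHG1, chr11:62855866-62855885, minus strand: CTCatttttctactgctcgt
SNHG7, chr9:136728165-136728184, minus strand: CTCTgcgtgcgccggaggct
SNHG29, chr17:16438987-16439006, plus strand: ggattgggatattccgactc
SNHG28, chr1:159855018-159855037, minus strand: gttttccacagagaggacgc
SNHG11, chr20:38446654-38446673, plus strand: gcagccgcgcccccagccgt
SNHG17, chr20:38435309-38435328, minus strand: agtccttcgccgtccctcgc
EPB41L4A-AS1, chr5:112160526-112160545, plus strand: Tgtcgggtcccaaaatacgt
A run of 5 or more pyrimidines beginning with C opened the annotated start of SNHG12 (11 bases) and SNHG32 (6 bases), of 15 called members with a window in the table. The same held for 7 of the 201 members with a window and for 4.04% of all 27305 windows. This feature was chosen after the values had been seen. Annotated starts can differ by a few bases from the start used in the cells.

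The promoter windows of 3 of the members with the largest rises, and of LINC00473, a member that fell and is known to be induced through cyclic AMP and CREB, follow for the reader's own inspection. Each holds 250 bases before and 50 after the annotated start (RefSeq, GRCh38.p14), and capitals mark the run of pyrimidines at the start and any match to the motifs listed after them.
SNHG12, chr1:28581824-28582123, minus strand: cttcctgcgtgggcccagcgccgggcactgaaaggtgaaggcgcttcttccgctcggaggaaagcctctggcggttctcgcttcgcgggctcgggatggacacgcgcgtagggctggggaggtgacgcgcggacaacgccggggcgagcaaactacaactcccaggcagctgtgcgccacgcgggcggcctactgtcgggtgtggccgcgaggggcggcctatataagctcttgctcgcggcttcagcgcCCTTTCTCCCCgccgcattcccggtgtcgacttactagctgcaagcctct
EPB41L4A-AS1, chr5:112160276-112160575, plus strand: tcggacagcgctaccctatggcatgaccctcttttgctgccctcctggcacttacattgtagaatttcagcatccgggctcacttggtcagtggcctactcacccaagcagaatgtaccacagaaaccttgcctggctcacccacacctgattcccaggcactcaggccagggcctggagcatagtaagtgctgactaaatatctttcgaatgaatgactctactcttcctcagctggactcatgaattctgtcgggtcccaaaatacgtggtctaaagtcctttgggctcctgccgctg
SNHG32, chr6:31834666-31834965, plus strand: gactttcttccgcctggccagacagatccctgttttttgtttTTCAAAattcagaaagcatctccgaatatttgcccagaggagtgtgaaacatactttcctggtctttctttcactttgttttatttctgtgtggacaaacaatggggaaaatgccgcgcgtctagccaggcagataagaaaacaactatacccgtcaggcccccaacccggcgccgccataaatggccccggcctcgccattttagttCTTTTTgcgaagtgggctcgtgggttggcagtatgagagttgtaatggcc
LINC00473, chr6:165987990-165988289, minus strand: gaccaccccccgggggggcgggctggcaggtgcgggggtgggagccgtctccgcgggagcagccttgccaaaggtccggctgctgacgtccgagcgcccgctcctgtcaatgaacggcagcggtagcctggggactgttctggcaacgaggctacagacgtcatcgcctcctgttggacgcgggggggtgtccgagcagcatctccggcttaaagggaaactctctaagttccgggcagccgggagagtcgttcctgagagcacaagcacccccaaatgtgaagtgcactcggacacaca
Both strands were searched for the interferon-response core (in 3.65% of all windows and in 6 of 201 members), CACGTG (the E-box, 7.43%, 17 members), TGACGTCA (the cyclic AMP element, 1.98%, 2 members), TGANTCA (AP-1, 7.76%, 20 members), TTTCGCGC or TTTGGCGC (E2F, 1.18%, 2 members), the NF-kB letters (1.92%, 2 members) and TTTGAA (the cell cycle homology region, 15.4%, 24 members). Of the 15 called members with a window, CCNT2-AS1 held the interferon-response core, SNHG1 the E2F letters and SNHG32 the TTTGAA letters, and the rest held none of these. A match is a run of letters and not a site shown to be used.

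The values are log2 signals after RMA, which brings all arrays to a common distribution, so a difference is relative to the typical probe set, and 1 log2 unit is a doubling. A group mean is given with its SD over 3 arrays, and a difference with the SE of limma's fit. "Rose", "fell" and "past the threshold" mean an adjusted p under 0.05 in limma over all 18132 genes. The silenced gene itself was checked first. LINC00525 was 3.86, 3.74 and 3.97 on control replicates 1 to 3 and 3.67, 3.45 and 3.54 on knockdown replicates 1 to 3, so no control array was below any knockdown array. It fell by 0.30 ± 0.075 (limma adjusted p = 0.0372), and the exact 2-sided permutation test gave p = 0.1, the smallest that 3 arrays against 3 can give. Its only probe set lay within the range of the Tag controls, so the difference was read near background. LINC00526, named in the genotype field of knockdown replicate 2, was 4.03, 3.96 and 4.13 on the control arrays and 4.28, 4.25 and 4.09 on the knockdown arrays, a difference of 0.17 ± 0.065 that missed the threshold (limma adjusted p = 0.149), with overlapping groups. LINC00526 too lay within the range of the Tag controls. On the 1 array with LINC00525 in its own genotype field, LINC00525 differed from the controls by -0.19 (limma adjusted p = 0.363, with a spread taken from the 3 control arrays alone). The 5 epithelial markers exceeded every Tag control (the background probe sets described with the signals), with KRT18 at 12.45, KRT8 at 12.02, KRT19 at 9.28, CDH1 at 8.54 and EPCAM at 5.43 on the control arrays. KRT19 rose by 0.29 (limma adjusted p = 0.00409) and KRT8 fell by 0.15 (adjusted p = 0.0474). Of 13 fibroblast, leukocyte and endothelial markers measured, CD14 (6.25), PDGFRB (4.86) and PECAM1 (4.65 on the control arrays, 4.74 over the 6 arrays) also exceeded every Tag control, 10 did not, PTPRC (2.32) and DCN (3.03) among them, and none passed the threshold in limma (1 had an unadjusted p under 0.05). In such bulk RNA, fewer cells of a type and less RNA per cell cannot be told apart. No label states whether replicates came from separate cultures, and each p-value therefore covers only sample-to-sample spread that may be technical.

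Most long noncoding RNA genes gave a signal no higher than the highest of the probes with no human target. The Tag controls are 17 probe sets whose sequences match no human transcript, so their signal is background. Averaged over the 6 arrays they lay between 2.26 and 4.65, with a median of 2.79, and a single one stood apart at the top, the next lying at 3.72. Only 68 of the 274 members (24.8%) exceeded every Tag control, against 62.7% of all genes. By class these were 8 of 10 SNHG genes, 2 of 4 microRNA host genes, 34 of 110 antisense genes and 24 of 150 LINC genes. Against the second highest Tag control, 126 members were higher, as were 13751 of the 18132 genes. Below the median Tag control lay 52 members, so most were above the middle of the background. The median signal was 7.34 for SNHG genes, 5.22 for microRNA host genes, 3.84 for antisense genes and 3.41 for LINC genes, against 5.64 for all genes. Probe sets bind with unequal strength, so these are signals and not amounts of RNA. A member within the Tag range may be transcribed, but its difference between groups may be compressed there, which was not tested.

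**Figure D1:**
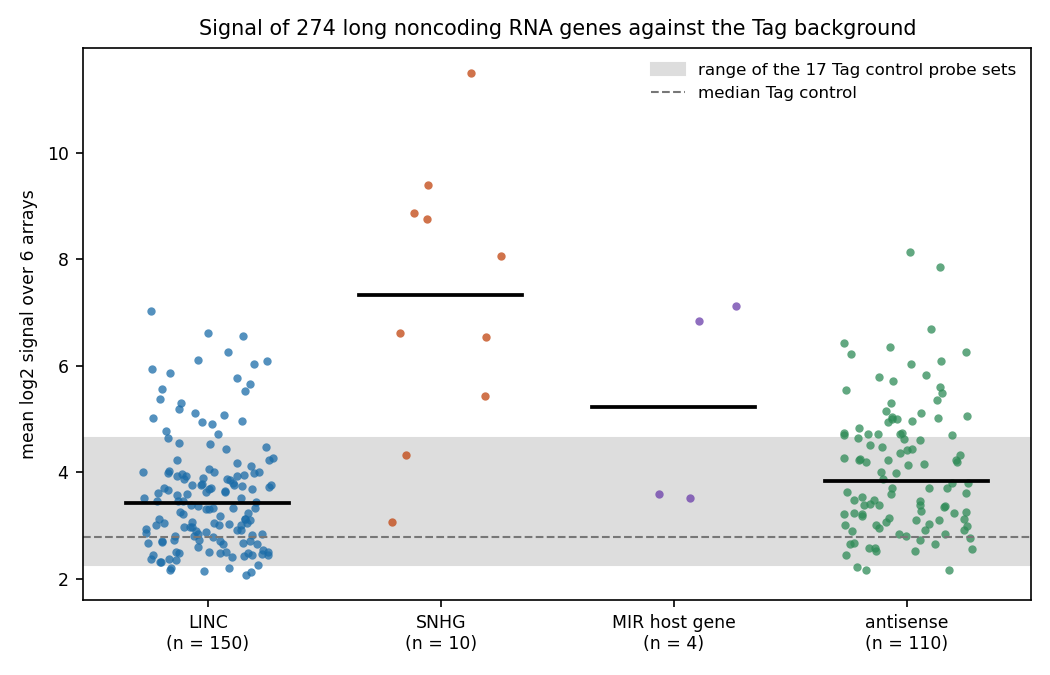
Each point is 1 of the 274 long noncoding RNA genes, placed by class, with its mean log2 signal over the 6 arrays on the vertical axis; black lines are class medians, and the grey band is the range of the 17 Tag controls. SNHG genes lie mostly above the band (median 7.34), while most LINC genes (median 3.41) and antisense genes (median 3.84) lie inside it.

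Silencing went with few differences among the members. Of 274, 10 rose, 9 fell and 255 did not pass the threshold, so that 6.93% were called, against 12.6% of all genes (5.77% higher and 6.83% lower). The groups did not overlap for 24 members that were higher and 18 that were lower (15.3%, against 30.8% of all genes, 12.9% higher and 17.9% lower). The lower share went with the lower signals: of the 68 members above every Tag control, 7 rose and 6 fell (19.1% called, against 18.5% of all genes at such signals, 8.24% higher and 10.3% lower), and of the 206 within the Tag range, 3 rose and 3 fell (2.91%, against 2.69%, 1.63% higher and 1.06% lower). These shares are near the background. The median difference was -0.01 over the members, as over all genes, and the differences ran from -0.49 to 0.88. For 185 of the members the difference was under 0.1 in size. By class, 4 SNHG genes rose and 1 fell, 5 antisense genes rose and 3 fell, 1 LINC gene rose and 4 fell, and 1 microRNA host gene fell. None of the 17 Tag controls passed the threshold in limma's fit over all probe sets (2 had an unadjusted p under 0.05), and their differences ran from -0.18 to 0.15.

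**Figure D2:**
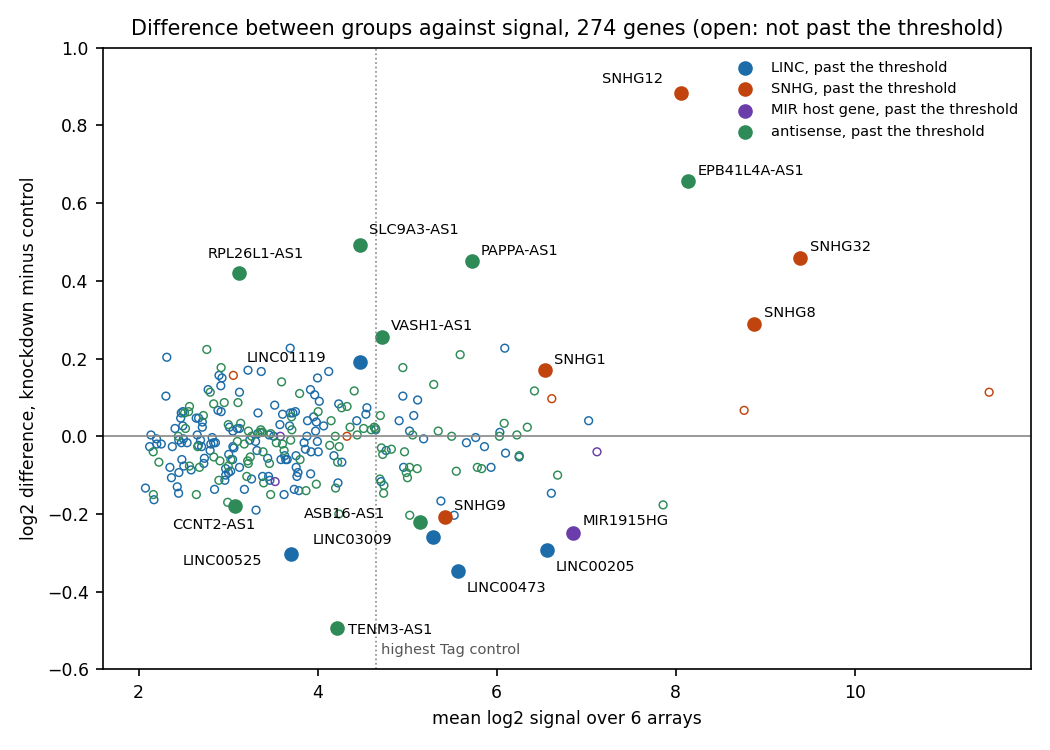
Mean log2 signal over the 6 arrays (horizontal axis) against the log2 difference, knockdown minus control (vertical axis), for the 274 genes; filled points are past the threshold, open points are not, colours mark the classes, and the dotted line is the highest Tag control. SNHG12 stands highest at 0.88, and the called genes left of the dotted line lie within the Tag range.

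Among the SNHG genes, SNHG12, SNHG32, SNHG8 and SNHG1 rose and SNHG9 fell. SNHG12, the host of SNORA16A, SNORA44 and SNORA61, had a signal of 7.63, 7.60 and 7.61 on the control arrays and 8.49, 8.54 and 8.46 on the knockdown arrays. All knockdown arrays lay well above all control arrays. The difference was 0.88 ± 0.038, a 1.84-fold rise (limma adjusted p = 1.5e-05), and its other single-symbol probe set gave 0.96. A further probe set, shared in the annotation with SNORA16A, gave 0.15 without passing the threshold, so the probe sets at this locus disagree in size. Those shared with SNORA61 and SNORA44 gave 0.00 and -0.17, neither past the threshold, the latter within the Tag range.

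SNHG32, which hosts SNORD48 and SNORD52, was 9.20, 9.15 and 9.12 on the control arrays and 9.62, 9.61 and 9.62 on the knockdown arrays, a rise of 0.46 ± 0.038 (limma adjusted p = 0.000371). The groups were far apart relative to the spread within either, and the other probe set of SNHG32 gave 0.47. SNHG8, the host of SNORA24, was 8.67, 8.71 and 8.80 on the control arrays and 9.03, 9.02 and 9.00 on the knockdown arrays, a rise of 0.29 ± 0.044 (limma adjusted p = 0.00625). SNHG1, which hosts a run of box C/D small nucleolar RNAs, moved less. Its signal was 6.42, 6.48 and 6.47 against 6.60, 6.67 and 6.61, a rise of 0.17 ± 0.040 (limma adjusted p = 0.0308) that missed the threshold without any 1 of the 6 arrays (adjusted p 0.0564 to 0.0997). SNHG9, the host of SNORA78, was the exception, at 5.47, 5.56 and 5.56 on the control arrays and 5.34, 5.30 and 5.33 on the knockdown arrays. It fell by 0.21 ± 0.041 (limma adjusted p = 0.0179), with groups that did not overlap. Leaving out knockdown replicate 2 or either of control replicates 2 and 3 took it past 0.05 (adjusted p 0.0635 to 0.0701).

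The other 5 SNHG genes did not pass the threshold. SNHG29, the host of SNORD49 and SNORD65, had one of the strongest signals of any member and was tightly measured, at 11.46, 11.43 and 11.44 against 11.57, 11.55 and 11.55. Its groups did not overlap, yet the difference of 0.11 ± 0.035 gave a limma adjusted p of 0.0764. SNHG28 differed by 0.16 (adjusted p = 0.155), within the Tag range, and SNHG11 by 0.10 (adjusted p = 0.201). SNHG7, the host of SNORA17, differed by 0.07 (adjusted p = 0.324), and its other probe set had the opposite sign, at -0.21. SNHG17 was 4.33 in both groups, within the Tag range. Over the 10 genes the median difference was 0.14, against -0.01 over all genes. The groups did not overlap in 8 of them, 7 higher and 1 lower, where 12.9% and 17.9% of all genes did so. Strong signals separate more often. Of the 8 SNHG genes above every Tag control, 6 were higher and 1 lower without overlap (87.5%). For all genes above every Tag control the share was 42.3% (1948 higher and 2860 lower of 11364). Those 8 SNHG genes had a median signal of 8.41, and for all genes with a mean of 7 or more the share was 53.4%.

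The sign of the smaller SNHG differences depended on what the arrays were scaled to. The bacterial hybridization controls, added to the sample just before hybridization, were 9.22 ± 0.11 on the control arrays and 9.50 ± 0.045 on the knockdown arrays, a difference of 0.28, and the poly-A controls, added to the RNA before labelling, differed by 0.14. Setting these controls equal lowers every gene on the knockdown arrays, so that the median gene differed by -0.29 or by -0.15. SNHG12 stayed higher at 0.60 and 0.74, and past the threshold both times (limma adjusted p = 2.2e-08 and 1.0e-06). SNHG32 gave 0.18 (adjusted p = 0.0716) and 0.32 (adjusted p = 0.00120), SNHG8 0.01 and 0.15 with neither past the threshold, and SNHG1 -0.11 and 0.03. Each scaling shifts all genes of an array by a shared amount, whose error limma treats as separate for each gene. The adjusted p-values under these scalings are therefore not comparable with those of the deposited values. Read against the median gene of the same scaling, each SNHG gene keeps the distance that it has in the deposited values. Whether total RNA or the added controls differed between groups was not tested.

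**Figure D3:**
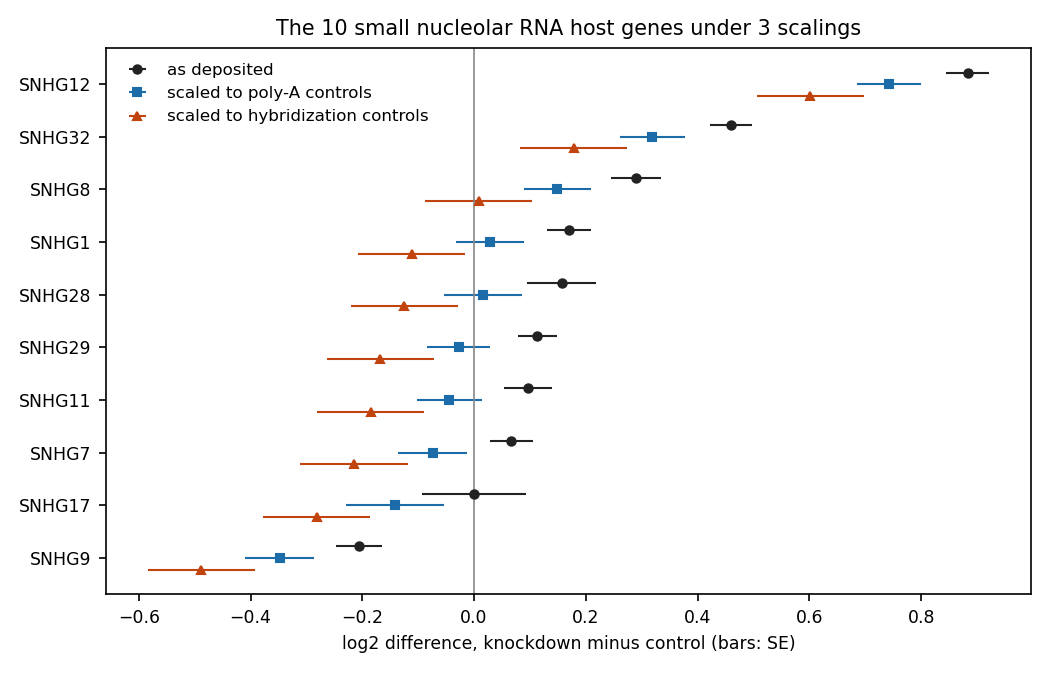
Log2 difference, knockdown minus control (horizontal axis; bars are SE), of the 10 SNHG genes from the deposited values (circles), after scaling to the poly-A controls (squares) and after scaling to the hybridization controls (triangles). SNHG12 and SNHG32 lie right of 0 under all 3 scalings, while SNHG1, SNHG28, SNHG29, SNHG11 and SNHG7 cross from right to left of 0 under the scaling to hybridization controls.

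EPB41L4A-AS1 and ZFAS1 also carry small nucleolar RNAs, and both rose. EPB41L4A-AS1, the host of SNORA13, was 7.77, 7.83 and 7.81 on the control arrays and 8.42, 8.50 and 8.46 on the knockdown arrays. The groups were far apart, and the rise of 0.66 ± 0.040 (limma adjusted p = 7.9e-05) remained past the threshold under both control scalings, at 0.38 and 0.52. ZFAS1, host of the SNORD12 family and no member because of its name, went from 10.42, 10.43 and 10.45 to 10.85, 10.77 and 10.69, a rise of 0.34 ± 0.048 (limma adjusted p = 0.00479). Of its 3 other probe sets, 2 also passed the threshold, at 0.50 and 0.42. Host genes that make a protein were mostly level. Of 24 measured of a list of 30, 1 rose and 1 fell, and the median difference was 0.01. That is 8.33% called, against 12.6% of all genes and 18.5% of those above every Tag control, as 23 of the 24 were. Their median signal was 11.89, where the highest of any gene was 13.02. Whether differences are compressed at such strong signals was not tested. The gene that rose was EIF4A2, a translation initiation helicase (0.24 ± 0.048, limma adjusted p = 0.0169), a call that was lost on leaving out control replicate 2 or 3 or knockdown replicate 3. None of its 3 other single-symbol probe sets passed the threshold (0.00 to 0.13), and those shared in the annotation with SNORA63 fell by 0.68 and 0.34, and those shared with SNORA4 by 0.30 and 0.23. The other was RPL27A, a ribosomal protein gene (fell by 0.52 ± 0.068, limma adjusted p = 0.00343), whose probe set had a signal of only 3.70 on the control arrays, within the Tag range.

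Genes that assemble small nucleolar RNA particles or remove short-lived transcripts were looked up from 3 lists, whose measured members all lay above every Tag control, where 18.5% of all genes were called (8.24% higher and 10.3% lower). For all genes with a mean signal of 7 or more, 22.7% were called (9.13% higher and 13.6% lower). Of 18 particle proteins and assembly factors, 3 fell and none rose (16.7%, near these shares), with a median difference of -0.10. These were NOP58, a core protein of box C/D particles (10.48 to 10.27, fell by 0.20 ± 0.034, limma adjusted p = 0.00946), NOP56, its partner (fell by 0.15, adjusted p = 0.0329), and NUFIP1, an assembly factor (fell by 0.19, adjusted p = 0.0483), although its 3 other probe sets did not pass (-0.03 to -0.12). With any 1 array left out, 1 or 2 of the 18 fell. All 3 lists were chosen with earlier results of these data known, so a share above the background is a description only. Of 15 nonsense-mediated decay factors measured of 18, 5 fell and none rose (33.3%), with a median of -0.13. Among them UPF1, the central helicase of the pathway, was 6.88, 6.91 and 6.84 on the control arrays and 6.70, 6.63 and 6.69 on the knockdown arrays (fell by 0.20 ± 0.040, limma adjusted p = 0.0174). MAGOHB of the exon junction complex fell by 0.28 (adjusted p = 0.0394) and DHX34 by 0.27 (adjusted p = 0.0353). No other probe set of these 3 genes passed the threshold: UPF1 gave -0.09 and -0.25, MAGOHB 0.01, and DHX34 -0.26 and -0.02. With any 1 array left out, between 0 and 2 of the 15 fell. Of 18 genes of the nuclear exosome and its adaptors, 3 fell (EXOSC6 by 0.21, EXOSC8 by 0.18 and EXOSC5 by 0.16) and ZFC3H1 rose by 0.16 (22.2% called, near the shares of all genes). With any 1 array left out, at most 1 fell and none rose. Calls over all genes dropped on these omissions too, from 6.83% lower to between 2.60% and 4.37%, and from 5.77% higher to between 3.49% and 4.6%. All of these lists carry the small differences that depend on scaling. Under the scaling to hybridization controls 15 of the 15 decay factors fell, but so did 83.2% of all genes, and the median gene was itself lower by 0.29. That scaling lowers every gene alike, so the count shows nothing particular to the decay factors.

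Among the 110 antisense genes, EPB41L4A-AS1, SLC9A3-AS1, PAPPA-AS1, RPL26L1-AS1 and VASH1-AS1 rose, and TENM3-AS1, ASB16-AS1 and CCNT2-AS1 fell. PAPPA-AS1 is named after PAPPA, a secreted metalloprotease that cleaves IGF-binding proteins. It was 5.52, 5.44 and 5.53 on the control arrays and 6.08, 5.86 and 5.90 on the knockdown arrays, a rise of 0.45 ± 0.063 (limma adjusted p = 0.00447), and its other probe set gave 0.56. The groups did not overlap. TENM3-AS1 is named after TENM3, a teneurin of the cell surface, and was 4.45, 4.42 and 4.53 against 4.11, 3.91 and 3.90. It fell by 0.49 ± 0.064 (limma adjusted p = 0.00336), although its signal lay below the highest Tag control.

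SLC9A3-AS1, named after a sodium-proton exchanger and below the highest Tag control in its mean signal, was 4.32, 4.28 and 4.09 on the control arrays and 4.80, 4.67 and 4.70 on the knockdown arrays. That rise of 0.49 ± 0.068 (limma adjusted p = 0.00409) was not matched by its other probe set, which gave -0.05. RPL26L1-AS1 was 2.97, 2.84 and 2.92 against 3.30, 3.31 and 3.38, a rise of 0.42 ± 0.047 (limma adjusted p = 0.00171) within the Tag range, and its other probe set gave 0.18 (adjusted p = 0.0491). VASH1-AS1 rose by 0.26 ± 0.055 (limma adjusted p = 0.0230), ASB16-AS1 fell by 0.22 ± 0.047 (adjusted p = 0.0234) and CCNT2-AS1 fell by 0.18 ± 0.035 (adjusted p = 0.0166), each with groups that did not overlap. VASH1-AS1 lost its call without control replicate 2 or 3 or knockdown replicate 2 or 3 (adjusted p 0.0568 to 0.0701), ASB16-AS1 without any array but knockdown replicate 3 (0.0617 to 0.0795), and CCNT2-AS1 without control replicate 1 or 2 (0.0517 to 0.0653). CCNT2-AS1 was within the Tag range. Under the scaling to hybridization controls SLC9A3-AS1 stayed past the threshold at 0.21 (adjusted p = 0.0336), while PAPPA-AS1 at 0.17 and RPL26L1-AS1 at 0.14 did not, and VASH1-AS1 had the opposite sign. The antisense genes with the strongest signals after EPB41L4A-AS1 did not pass the threshold: KRT10-AS1 was 7.95 on the control arrays and 7.77 on the knockdown arrays (a difference of -0.18, adjusted p = 0.0586), and AGAP2-AS1 was 6.73 and 6.63 (a difference of -0.10, adjusted p = 0.371).

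Antisense genes and the genes they are named after were then set side by side. A named partner was measured for 104 of the 110 antisense genes, which share 103 partners. Of these partners 6 rose and 5 fell, 10.7% against 12.6% of all genes. With any 1 array left out 4 to 7 rose and 2 or 3 fell (all genes: 3.49% to 4.6% and 2.60% to 4.37%). In 3 pairs both genes passed the threshold. PAPPA was 9.24, 9.19 and 9.28 on the control arrays and 9.80, 9.74 and 9.73 on the knockdown arrays, a rise of 0.52 ± 0.042 (limma adjusted p = 0.000334) beside that of PAPPA-AS1, and its other 7 probe sets gave 0.23 to 0.60. TENM3 was 6.69, 6.60 and 6.69 against 6.21, 6.20 and 6.10, and fell by 0.49 ± 0.048 (adjusted p = 0.000841) beside TENM3-AS1, and its other probe sets fell by 0.35 and 0.21. EPB41L4A, which encodes a band 4.1-like protein under the membrane, went the other way from its antisense gene. It was 7.36, 7.40 and 7.39 against 7.10, 7.10 and 7.19, and fell by 0.25 ± 0.041 (adjusted p = 0.00801) while EPB41L4A-AS1 rose, but its other probe set gave 0.02 without passing the threshold.

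In the other 8 pairs with a changed partner the antisense gene did not pass the threshold. All 8 of these antisense genes had mean signals within the Tag range, where differences may be compressed, which was not tested. Whether they changed along with their partners therefore cannot be decided from these probe sets. The partner with the largest measured difference was IL6, the cytokine interleukin 6, at 4.09, 4.03 and 4.15 on the control arrays and 5.32, 5.45 and 5.52 on the knockdown arrays, a rise of 1.34 ± 0.060 (limma adjusted p = 1.7e-05). On the control arrays IL6 lay below the highest Tag control (4.60), so its control level is not above background by that measure. The other probe set of IL6 gave 0.06 without passing the threshold. IL6-AS1 was 2.81, 2.65 and 2.77 against 2.86, 2.80 and 2.91, near the median Tag control, a difference of 0.11 (adjusted p = 0.228) with overlapping groups. JAZF1 rose by 0.44, ARRDC3 by 0.35, ASMTL by 0.26 and ADIRF by 0.25, with differences of 0.02, 0.02, 0.02 and 0.07 for their antisense genes. DLG5 fell by 0.17, ZNF566 by 0.16 and STARD7 by 0.15, with differences of 0.14, -0.06 and -0.04. ADIRF itself lay within the Tag range, and its other probe set gave 0.16 without passing the threshold. The other probe sets of DLG5 (-0.14 and -0.08) and ZNF566 (-0.29) did not pass either. Those of JAZF1 (0.25) and ARRDC3 (0.27 and 0.38) passed, and STARD7 gave -0.17, which passed, and -0.10, which did not. Of the partners of the other 5 called antisense genes, SLC9A3 (-0.04), RPL26L1 (0.01), VASH1 (0.07), ASB16 (-0.08) and CCNT2 (0.14), none passed the threshold. The files hold no probe sequences, and whether a probe set of an antisense gene also reads its partner was not tested.

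**Figure D4:**
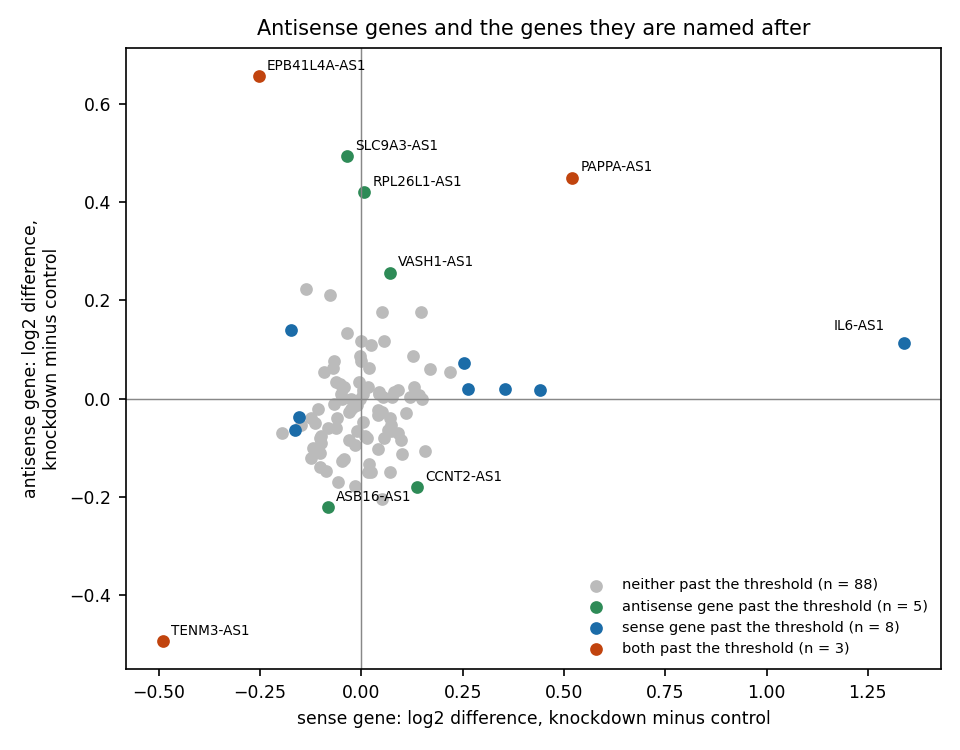
Log2 difference, knockdown minus control, of the named sense gene (horizontal axis) against that of its antisense gene (vertical axis) for the 104 pairs; colours mark which of the genes passed the threshold. PAPPA and TENM3 lie near the line of equal change, EPB41L4A lies at -0.25 against 0.66, and IL6 lies far right at 1.34 with 0.11 for IL6-AS1.

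Of 46 measured protein-coding genes beside or overlapping the called members, 4 passed the threshold (8.70%, against 12.6% of all genes). For SNHG12 the nearest protein-coding genes RCC1 and TRNAU1AP each differed by -0.13, and for SNHG32 NEU1 differed by 0.20. RPS2, beside SNHG9, differed by 0.01, and SLC3A2, beside SNHG1, by 0.09. None of these passed the threshold. Of the neighbours of the members named so far, the one past the threshold other than the partners above was ERGIC1, beside RPL26L1-AS1 (0.20, adjusted p = 0.0373).

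Among the 150 LINC genes, LINC01119 rose and LINC00473, LINC00525, LINC00205 and LINC03009 fell. LINC00473 was 5.56, 5.83 and 5.84 on the control arrays and 5.37, 5.39 and 5.43 on the knockdown arrays. It fell by 0.35 ± 0.075 (limma adjusted p = 0.0244), and its other probe set fell by 0.49 (adjusted p = 0.00533). Control replicate 1 lay nearest to the knockdown arrays, and the call was lost without any array but that one (adjusted p 0.0571 to 0.0890). LINC00205 was 6.76, 6.72 and 6.66 against 6.35, 6.48 and 6.43, and fell by 0.29 ± 0.048 (limma adjusted p = 0.00859). Its groups were apart, and its other probe set gave -0.18 (adjusted p = 0.0832).

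LINC03009 was 5.37, 5.53 and 5.37 against 5.07, 5.17 and 5.25, and fell by 0.26 ± 0.064 (limma adjusted p = 0.0362), a call lost without any array but knockdown replicate 3 (adjusted p 0.0674 to 0.108). LINC01119 was 4.39, 4.30 and 4.43 against 4.52, 4.54 and 4.63, a rise of 0.19 ± 0.050 (adjusted p = 0.0474) within the Tag range. It missed the threshold without any 1 of the 6 arrays (adjusted p 0.0670 to 0.143). LINC00525 missed it without control replicate 1 or 3 or knockdown replicate 2 or 3 (adjusted p 0.0960 to 0.111). The LINC genes with the strongest signals did not pass the threshold: LINC01547 was 7.01 and 7.05 in the control and knockdown groups, and LINC01296 was 6.68 and 6.54 (adjusted p = 0.152). Just outside the threshold were LINC00272 (0.23, adjusted p = 0.0539), KRT10-AS1 (-0.18, 0.0586) and CDKN2B-AS1 (0.22, 0.0615), and just inside it were LINC01119 (0.0474) and LINC00525 (0.0372). CDKN2B-AS1 had a mean signal of 2.76, below the median Tag control (2.79), so its difference was read at background.

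**Figure D5:**
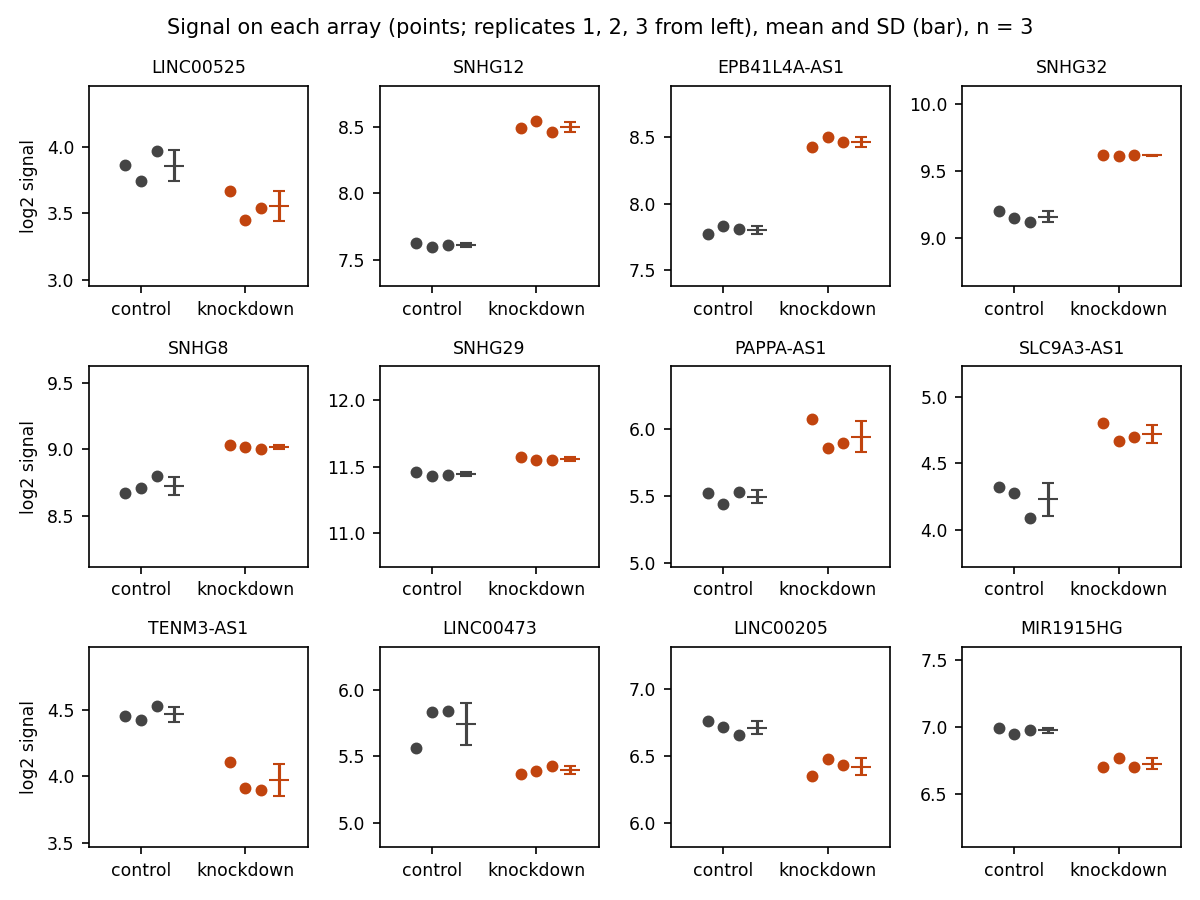
Log2 signal on each array for 12 of the members, with control arrays in grey and knockdown arrays in red, replicates 1 to 3 from left in each group, and the group mean and SD (bar, n = 3) beside them; every panel spans 1.5 log2 units. The groups are apart in each panel, from 0.88 in SNHG12 to 0.11 in SNHG29.

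The microRNA host genes are shown with the mature sequences they carry (RefSeq, GRCh38.p14), because the arrays read the host transcript and not the mature microRNA. Capitals mark the seed, bases 2 to 8, which pairs with targets.
hsa-miR-1915-3p, chr10:21496576-21496595, minus strand: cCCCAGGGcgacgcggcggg
hsa-miR-1915-5p, chr10:21496609-21496630, minus strand: aCCUUGCCuugcugcccgggcc
hsa-miR-22-3p, chr17:1713914-1713935, minus strand: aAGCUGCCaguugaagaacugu
hsa-miR-22-5p, chr17:1713952-1713973, minus strand: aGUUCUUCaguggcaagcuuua
None of these seeds is shared with another. MIR1915HG, the host of the first pair, was 6.99, 6.95 and 6.98 on the control arrays and 6.70, 6.77 and 6.70 on the knockdown arrays, and fell by 0.25 ± 0.039 (limma adjusted p = 0.00668). The groups were far apart, and its other probe set gave -0.28 with a larger spread (adjusted p = 0.138). MIR22HG, the host of the other pair, was 7.04, 7.30 and 7.08 against 7.09, 7.08 and 7.13, a difference of -0.04 with overlapping groups (adjusted p = 0.772), and its 4 other probe sets gave -0.10 to -0.13, none past the threshold. MIR205HG had a mean of 3.58 in both groups, within the Tag range.

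Long noncoding RNAs with other kinds of names were looked up from a list. Of 51 listed, 13 had a probe set of their own, and the other 38 were not searched for among probe sets with several symbols. Of the 13, ZFAS1 rose and DLEU2 and DLEU1 fell (23.1%, against 12.6% of all genes), with a median difference of -0.03. DLEU2, a microRNA host gene, was 6.64, 6.63 and 6.79 on the control arrays and 6.21, 6.08 and 6.23 on the knockdown arrays, and fell by 0.51 ± 0.061 (limma adjusted p = 0.00219). Its other 2 single-symbol probe sets gave 0.13 and 0.02 without passing the threshold, and one shared in the annotation with DLEU2L fell by 0.49. DLEU1, beside it in the genome, fell by 0.23 ± 0.045 (adjusted p = 0.0181). A single gene of the list fell on leaving out control replicate 1 or 2 or knockdown replicate 1 or 2. MALAT1, an abundant nuclear RNA, was 11.73 and 11.76 in the control and knockdown groups, and NORAD, which binds Pumilio proteins, was 9.12 and 9.15, neither past the threshold.

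Probe sets of 1 gene did not always give 1 answer. Of the 19 called members, 9 had another probe set, and in 5 of these another probe set passed the threshold in the same direction (SNHG12, SNHG32, PAPPA-AS1, RPL26L1-AS1 and LINC00473). For 10 the single probe set is the only evidence. The probe sets of EPB41L4A-AS1, SNHG9, LINC03009, LINC00205 and TENM3-AS1 are of a kind that may read transcripts of related genes, and those of SNHG32 and RPL26L1-AS1 of a kind that may cross-hybridize. Over all members, 6 of 113 other probe sets passed the threshold, against 9.89% of all probe sets on the array (4.64% higher and 5.25% lower). The sixth belongs to LINC02693, whose own value was 5.02 and 5.03 in the 2 groups while the other probe set fell by 0.32 (limma adjusted p = 0.0417). Without the arrays one at a time, 10 of the 19 called members kept their call on each omission: SNHG12, EPB41L4A-AS1, SLC9A3-AS1, SNHG32, PAPPA-AS1, RPL26L1-AS1, SNHG8, MIR1915HG, LINC00205 and TENM3-AS1.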

How the data were processed

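RNA of 3 control and 3 knockdown samples of A549 cells was read on 1-colour arrays; 100 ng of total RNA per sample was amplified into biotin-labelled cRNA, per the labels' protocols. The design text names RNA-Seq, whereas the values come from arrays. The deposited table holds log2 values of 49372 probe sets, made with RMA per the submitters' processing notes; the RMA software is not named. Array medians were 5.10 to 5.11, and no further normalization was applied. The platform annotation supplied names: 44994 probe sets had 1 symbol, 1832 several and 2546 none. Symbols were updated by gene identifier, which changed 0 of them. The probe set with the highest mean over the 6 arrays stood for each gene. Correlations between arrays were 0.9986 to 0.9989 within a group and 0.9959 to 0.9962 between groups, and the most alike pair shared 4.81% of its values exactly, so no array was a copy of another.

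The test was limma's (version 3.58.1, R 4.3.3; lmFit, then eBayes, 2-sided, no covariate), with Benjamini-Hochberg adjustment over 18132 genes, or over all probe sets for second probe sets and probe sets with several symbols. The number of arrays limits the precision. The fit was tested on simulated data for the 18132 genes: it recovered 77% of differences of 0.3 log2 units and 100% of those of 0.6, with 3 false calls of 180. The simulated noise was independent and normal, with the spread limma had estimated, so the assumptions of the fit held by construction. These rates are for genes of all signals and not for the members alone. Named genes were LINC00525, LINC00526, the 10 largest rises and falls past the threshold, every SNHG gene, the 3 members of each class with the strongest signal, the partners of antisense genes so named, and up to 3 changes in each direction per gene list; MALAT1, NORAD, LINC02693, the neighbouring genes, the values just outside the threshold and partners of antisense genes that did not pass were added with their values known. Members and gene lists were chosen with earlier results of these data known. Alternatives were other scalings, other rules for probe sets, other variance models, a replicate block and leaving out each array. Promoter and microRNA sequences are from RefSeq (GRCh38.p14). Figures were drawn with matplotlib 3.10.9.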

Additional observations from a re-analysis of the deposited data

Results flagged for a closer look

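Probe sets whose annotation gives several symbols stand outside the comparison of the 274 genes, and 70 of them include a name of the same kinds. In limma's fit over all probe sets, 5 of these were higher on the knockdown arrays, 2 were lower and 63 did not pass the threshold, so that 10.0% were called, against 9.89% of all probe sets (4.64% higher and 5.25% lower). The 5 that were higher differed by 0.80 (BACH1 and GRIK1-AS2), 0.40 (SNORA24 and SNHG8), 0.26 (ZEB1-AS1, listed under 2 entries), 0.25 (LINC00341 and SYNE3) and 0.21 (LINC02899 and LOC105374689). The last 3 lay within the Tag range. Other probe sets with the same names did not pass: BACH1 and GRIK1-AS2 gave 0.33 and -0.0033, ZEB1-AS1 gave 0.07, and LINC02899 with LOC105374689 gave 0.02. The SNORA24 and SNHG8 probe set had the same direction as the SNHG8 probe set of its own, which rose by 0.29. The 2 that were lower both carry SFPQ and ADAD2-AS1, and fell by 0.29 and 0.34. Which of the named genes a shared probe set reads was not tested.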

How the results depend on the processing

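The values that moved most did so under the 2 scalings to added controls. With the hybridization controls set equal, 3 members were higher and 233 lower (all genes: 232 and 15085), with a median of -0.29; with the poly-A controls set equal, 6 were higher and 115 lower (497 and 8397), with a median of -0.15. Each scaling subtracts the same amount (0.28 or 0.14) from every gene, so a small positive difference turns sign by construction, while its distance from the median gene stays the same. Signs turned under the hybridization scaling for LINC00526 (-0.11), VASH1-AS1 (-0.025), LINC01119 (-0.091), SNHG1 (-0.11), SNHG28 (-0.12), SNHG29 (-0.17), SNHG11 (-0.18), SNHG7 (-0.21), LINC01547 (-0.24), RPL26L1 (-0.27), VASH1 (-0.21) and CCNT2 (-0.14), and under the poly-A scaling for SNHG29 (-0.028), SNHG11 (-0.044), SNHG7 (-0.074), LINC01547 (-0.10), RPL26L1 (-0.13), VASH1 (-0.071) and CCNT2 (-0.0043). Averaging the probe sets of a gene turned SNHG7 (-0.070) and LINC01547 (-0.047). Leaving out probe sets that may cross-hybridize turned SNHG7 (-0.21) and ASB16 (0.053). Only 248 members and 16703 genes could then be tested, with 7 members higher and 5 lower (all genes: 883 and 953). Of the called members still tested, 12 kept their call and 2 lost it. Signs turned without 1 array for MIR22HG (-0.09 to 0.04), SLC9A3 (-0.085 to 0.015) and VASH1 (-0.0067 to 0.16).

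Without variance moderation 7 members were higher and 5 lower (all genes: 611 and 703), and LINC00525 (-0.30) missed the threshold (adjusted p = 0.151). With 1 array left out, 7 to 9 members were higher and 4 to 8 lower (all genes: 632 to 834 and 472 to 792, from 1046 and 1239 with all arrays). LINC00525 then ran from -0.36 to -0.25. With knockdown replicate 1 alone against the controls, an alternative chosen after seeing the data in which the spread comes from the 3 controls alone, 4 members were higher (EPB41L4A-AS1, PAPPA-AS1, SNHG12 and SNHG32) and 0 lower in limma at the same threshold, LINC00525 gave -0.19, SLC9A3 0.013 and RPL26L1 -0.0067. Over all genes that setting also gave far fewer lower than higher calls, so the lack of lower members is nothing particular to them. Same-numbered arrays hardly deviated together (correlations 0.092, 0.058 and -0.010), so replicate numbers were read as names only. With the replicate block 7 members were higher and 7 lower (all genes: 818 and 747). With that block 14 of the 19 calls were kept, and LINC00525 gave -0.30 (adjusted p = 0.0355). Cyclic loess gave 11 higher and 8 lower (all genes: 1265 and 922). Leaving aside the 2 control scalings and knockdown replicate 1 alone, 8 of the 19 called members kept their call under every alternative in which they were tested. The cause of these changes was not tested. Signals within the Tag range limit what 206 of the 274 genes can show.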
